A study of Arabidopsis thaliana with 12 samples.

Results

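Among the genes measured here were 4 that encode enzymes of tetrapyrrole and chlorophyll synthesis: HEMA3 (AT2G31250), SIRB (AT1G50170), CHLM (AT4G25080) and the geranylgeranyl reductase gene AT1G74470. They were chosen by their annotated function, as genes named alone by a probe, out of 691 genes so named on 692 probes, and each had 1 probe. Wild-type Arabidopsis thaliana of the accession Columbia 0, the common laboratory strain, was either left untreated or wounded mechanically by cutting into the leaves. Total RNA was measured on 6 arrays of untreated plants and 6 arrays of plants sampled 2 days after wounding. No transgene, mutation or other agent is named for either group. The labels give neither the age of the plants nor the harvested organ. They give no harvest day for untreated plants either, so wounding and the day of harvest cannot be told apart. Nothing in them says that each array had its own plants, and the p-values therefore describe array-to-array spread that may be technical.

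Tetrapyrroles are the ring molecules behind chlorophyll, heme, siroheme and the bilin pigment of phytochrome, and plants make them in plastids from glutamate. Glutamyl-tRNA reductase, the enzyme that the HEMA genes encode, starts the pathway and is the step at which its flow is set. Further down, a first branch leads to siroheme, the cofactor of nitrite and sulfite reductase, and a second fork sends protoporphyrin either with iron to heme or with magnesium to chlorophyll. Free intermediates of the chlorophyll branch are photosensitizers that form singlet oxygen in light, and in leaves the pathway is held under tight control.

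The deposited values were intensities on a relative linear scale, with an array mean between 0.983 and 1.09. Before normalization, the median log2 difference of all probes tested (wounded minus untreated) was -0.32 over the 12 arrays. Wounded replicate 4 stood apart from all other arrays, with correlations over probes between 0.430 and 0.500, so each result is given with and without it. Of the other 11 arrays, 5 pairs were alike, with correlations between 0.953 and 0.985, against 0.876 to 0.946 for the remaining pairs: untreated 1 and 2, 3 and 4, 5 and 6, and wounded 2 and 3, 5 and 6. Of 9 leaf and chloroplast marker genes, 6 had a probe naming 1 gene, and none of their values was 0. None of 5 root, 3 flower and 3 guard cell markers had such a probe, so the share of these cells was not tested. In RNA from whole tissue, fewer cells of a type and less RNA per cell cannot be told apart.

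A list of 43 genes of tetrapyrrole synthesis held only the 4 genes described here with a probe naming 1 gene. None of 10 genes of chlorophyll breakdown, 6 genes of tocopherol synthesis and 2 genes of siroheme enzymes had one. A further 4 probes named a listed gene together with other genes and are not read as any gene.

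With the arrays put on a common distribution (quantile normalization), SIRB and AT1G74470 were lower on average in wounded plants, over 12 and over 11 arrays. The signs of HEMA3, CHLM and AT1G74470 depended on the processing, while that of SIRB did not change. Over 11 arrays with the values as deposited, HEMA3 and AT1G74470 were both at a log2 difference of -0.23, beside a median of -0.31 over all probes. With each array centred on its median, both were at 0.11 over 11 arrays. Of the 4 genes, 0 passed the threshold of 0.05 on the adjusted p over the 12 arrays, where limma called 0% of 3233 probes, with 376 probes (11.6%) at an unadjusted p under 0.05. Without wounded replicate 4, 0 of the 4 passed either, while limma called 71 of 3203 probes (2.22%). That count fell to 0 with a random block for alike arrays, with these averaged or with the replicate number as a block, and ranged from 2 (without untreated 4) to 125 (without wounded 1) when a further array was left out. At an unadjusted p under 0.05, 0 of the 4 passed over 12 arrays and 1, SIRB, passed over 11 arrays, where 667 probes (20.8%) did. That pass of SIRB was lost in limma with a random block for alike arrays (unadjusted p = 0.146, with 243 probes under 0.05) and with these averaged (unadjusted p = 0.144, with 215 probes). The median log2 difference of the 4 genes was -0.07 over 12 arrays and -0.16 over 11, beside medians of -0.02 and -0.02 over all probes tested.

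**Figure D1:**
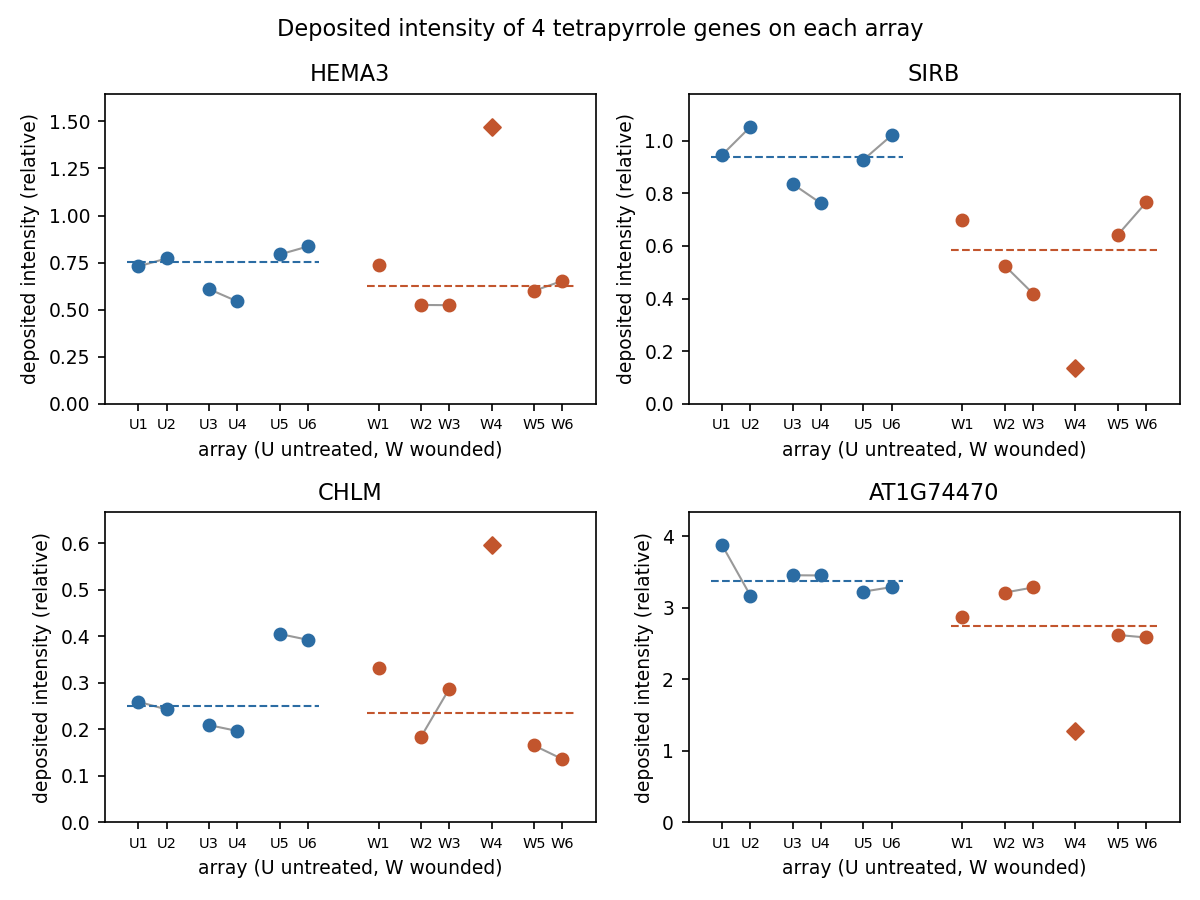
Deposited intensity (relative linear scale, y axis from 0) of each gene on each of the 12 arrays. Circles are arrays, the diamond is wounded replicate 4, grey lines join alike arrays and dashed lines are the medians of the 6 arrays of a group. For SIRB the medians were 0.937 in untreated and 0.584 in wounded arrays. With the values as deposited, the median log2 difference of all probes tested was -0.32 over the 12 arrays.

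HEMA3 encodes a glutamyl-tRNA reductase, the first committed enzyme of the whole pathway. The other HEMA genes on the list had no probe naming them alone, so HEMA3 is not read as this step as a whole. In untreated plants its deposited intensity was 0.544 at the lowest, 0.751 at the median and 0.836 at the highest array. In wounded plants it was 0.524 at the lowest, 0.627 at the median and 1.47 at the highest. The highest value was that of wounded replicate 4, and the other 5 wounded arrays lay between 0.524 and 0.738, overlapping the untreated range. The mean log2 level, after the arrays were put on a common distribution by quantile normalization, was -0.65 ± 0.26 (SD, n = 6) in untreated and -0.33 ± 0.71 (SD, n = 6) in wounded plants. The log2 difference was 0.32 ± 0.30 (SE, limma adjusted p = 0.632), with a 95% confidence interval from -0.32 to 0.97. Without wounded replicate 4 the difference was 0.04 ± 0.15 (SE, limma adjusted p = 0.906), with an interval from -0.28 to 0.36. An exact two-sided permutation test over arrays gave p = 0.385 with 12 arrays and p = 0.771 with 11. The intervals thus leave room for a change of either sign.

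SIRB encodes sirohydrochlorin ferrochelatase, which inserts iron into sirohydrochlorin in the last step of siroheme synthesis. In untreated plants its deposited intensity was 0.762 at the lowest, 0.937 at the median and 1.05 at the highest array. In wounded plants it was 0.136 at the lowest, 0.584 at the median and 0.765 at the highest. The ranges met only at untreated 4, with 0.762, and wounded 6, with 0.765, and the other 5 wounded arrays lay below every untreated one. The lowest value was that of wounded replicate 4. On the quantile-normalized scale 5 of 6 wounded arrays also lay below all untreated arrays, and all 6 lay below the untreated mean. The exception there was another array, wounded 1, with -0.44 against -0.45 for untreated 4, while wounded 6 was at -0.52.

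The mean log2 level of SIRB was -0.28 ± 0.17 (SD, n = 6) in untreated and -1.02 ± 0.99 (SD, n = 6) in wounded plants. The log2 difference was -0.74 ± 0.38 (SE, limma adjusted p = 0.472), with an interval from -1.56 to 0.09. Without wounded replicate 4 the wounded mean was -0.62 ± 0.16 (SD, n = 5), with an SD close to that of the untreated arrays. The difference was then -0.34 ± 0.12 (SE, limma adjusted p = 0.140, interval -0.59 to -0.08), a level 0.791 times that of untreated plants. The size of the SIRB difference thus rested on wounded replicate 4, since leaving it out moved the log2 value from -0.74 to -0.34, while the sign was negative with and without it.

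An exact two-sided permutation test on SIRB alone gave p = 0.00433 over 12 arrays and p = 0.00866 over 11, against smallest possible values of 0.00216 and 0.00433. This test counts the alike arrays as separate samples and was run once for each of the 4 genes. With the alike arrays averaged, 3 untreated and 4 wounded values remained, and the exact p was 0.0571, the smallest this design allows. For the 11 arrays it was 0.1, again the smallest possible for 3 against 3. When limma took alike arrays as a random block, the log2 difference was -0.91 ± 0.55 (SE, adjusted p = 0.931) over 12 arrays and -0.31 ± 0.20 (SE, adjusted p = 0.791) over 11. Over all alternatives the limma adjusted p of SIRB lay between 0.139 and 0.931 with 12 arrays and between 0.0590 and 0.791 with 11. The lowest of these, 0.0590 in limma, came with the values as deposited, where the log2 difference over 11 arrays was -0.62 ± 0.17 (SE) and the median of all probes was -0.31.

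CHLM encodes magnesium-protoporphyrin IX methyltransferase, which acts just after magnesium has been inserted on the chlorophyll branch. In untreated plants its deposited intensity was 0.196 at the lowest, 0.251 at the median and 0.405 at the highest array. In wounded plants it was 0.136 at the lowest, 0.235 at the median and 0.596 at the highest. The wounded values reached both below and above the untreated range, with 3 arrays below it and 1, wounded replicate 4, above it. CHLM had the widest spread of the 4 genes within the untreated group, at -2.02 ± 0.46 (SD, n = 6) on the log2 scale, beside -1.82 ± 0.96 (SD, n = 6) in wounded plants.

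The log2 difference of CHLM was 0.20 ± 0.40 (SE, limma adjusted p = 0.825), with an interval from -0.67 to 1.07. Over 11 arrays it turned to -0.08 ± 0.33 (SE, limma adjusted p = 0.920), with an interval from -0.80 to 0.63. The exact permutation test gave p = 0.660 over 12 arrays and p = 0.818 over 11. These intervals are the widest of the 4 genes in both fits, so the data set no tight limit on CHLM.

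The spread of CHLM followed the alike arrays. Untreated 5 and 6 had mean log2 levels of -1.45, against -2.40 for untreated 1 and 2 and -2.21 for untreated 3 and 4, a range of 0.96 among untreated plants. The arrays within these pairs differed by only 0.07 to 0.10. In the wounded group, arrays 2 and 3 had a mean of -1.66 and arrays 5 and 6 one of -2.86. These 4 wounded arrays differed by 0.64 and 0.27 within their pairs and by 1.19 between them. The range of 0.96 among untreated pairs and the distance of 1.19 between wounded pairs were therefore larger than the difference between the groups. Untreated 1 and 2 lay close to untreated 3 and 4. The pattern was not particular to CHLM. HEMA3 was also highest in untreated 5 and 6, at -0.33, against -0.77 for untreated 1 and 2 and -0.85 for untreated 3 and 4. Its range among untreated pairs was 0.52, with differences of 0.07 to 0.16 within them. What the arrays of a pair share is not given in the labels.

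AT1G74470 encodes geranylgeranyl reductase, which reduces the geranylgeranyl chain to the phytyl chain used for chlorophyll, tocopherol and phylloquinone. In untreated plants its deposited intensity was 3.17 at the lowest, 3.37 at the median and 3.88 at the highest array. In wounded plants it was 1.27 at the lowest, 2.75 at the median and 3.29 at the highest. The lowest was wounded replicate 4, and wounded 2 and 3, with 3.21 and 3.29, lay within the untreated range. Wounded 1, 5 and 6, with 2.87, 2.62 and 2.59, lay below every untreated array.

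Its mean log2 level was 1.70 ± 0.12 (SD, n = 6) in untreated and 1.36 ± 0.31 (SD, n = 6) in wounded plants, a difference of -0.34 ± 0.17 (SE, limma adjusted p = 0.455), with an interval from -0.70 to 0.02. Over 11 arrays it was -0.23 ± 0.11 (SE, limma adjusted p = 0.269, interval -0.48 to 0.01), a level 0.850 times that of untreated plants. The exact permutation test gave p = 0.0152 over 12 arrays and p = 0.0303 over 11. With the alike arrays averaged it gave 0.0571 and 0.1, in both cases the smallest exact p possible.

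The 3 untreated pairs of AT1G74470 had almost the same mean log2 level, at 1.70 each with a range of 0.0047, although untreated 1 and 2 differed by 0.37. In the wounded group, arrays 2 and 3 had a mean of 1.66 and arrays 5 and 6 one of 1.28. The lower mean in wounded plants thus came mainly from wounded 1, 4, 5 and 6. The sign also depended on the scaling. With each array centred on its median, the difference was -0.08 ± 0.25 (SE, limma adjusted p = 0.904) over 12 arrays and turned to 0.11 ± 0.18 (SE, limma adjusted p = 0.780) over 11. Over all alternatives the limma adjusted p of AT1G74470 lay between 0.269 and 0.931 with 12 arrays and between 0.189 and 0.823 with 11.

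**Figure D2:**
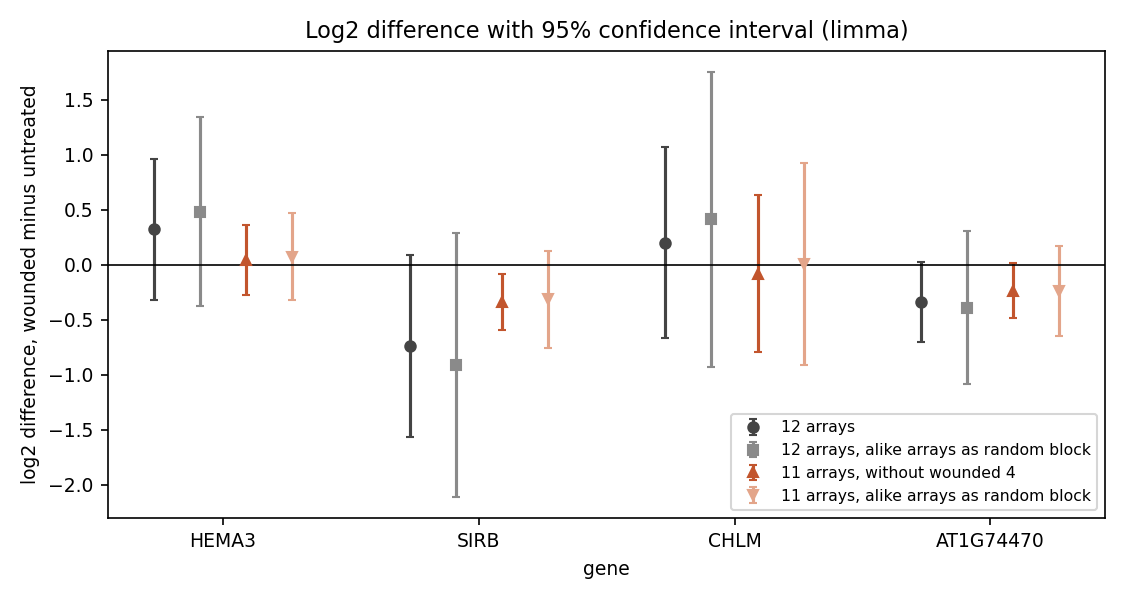
Log2 difference (wounded minus untreated, quantile-normalized values) of each gene with its 95% confidence interval in limma, over 12 arrays and over the 11 without wounded replicate 4, each also with a random block for alike arrays. All intervals include 0 except that of SIRB over 11 arrays, from -0.59 to -0.08.

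Wounded replicate 4 was high for HEMA3 and CHLM and low for SIRB and AT1G74470. Relative to the untreated mean its log2 value was 1.73 for HEMA3, 1.62 for CHLM, -0.86 for AT1G74470 and -2.74 for SIRB. It lay above all untreated arrays for HEMA3 and CHLM, as it did for 44.3% of all probes tested, and below all of them for SIRB and AT1G74470, as for 40.7% of all probes.

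None of the 4 genes had groups that did not overlap on the quantile-normalized scale, over 12 or over 11 arrays, where 3.5% and 5.81% of all probes did. The lower and upper quartiles of all log2 differences ran from -0.32 to 0.27 over 12 arrays and from -0.24 to 0.20 over 11. SIRB lay outside these quartiles in both fits, HEMA3 and AT1G74470 did so over 12 arrays but not over 11, and CHLM lay between them in both.

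**Figure D3:**
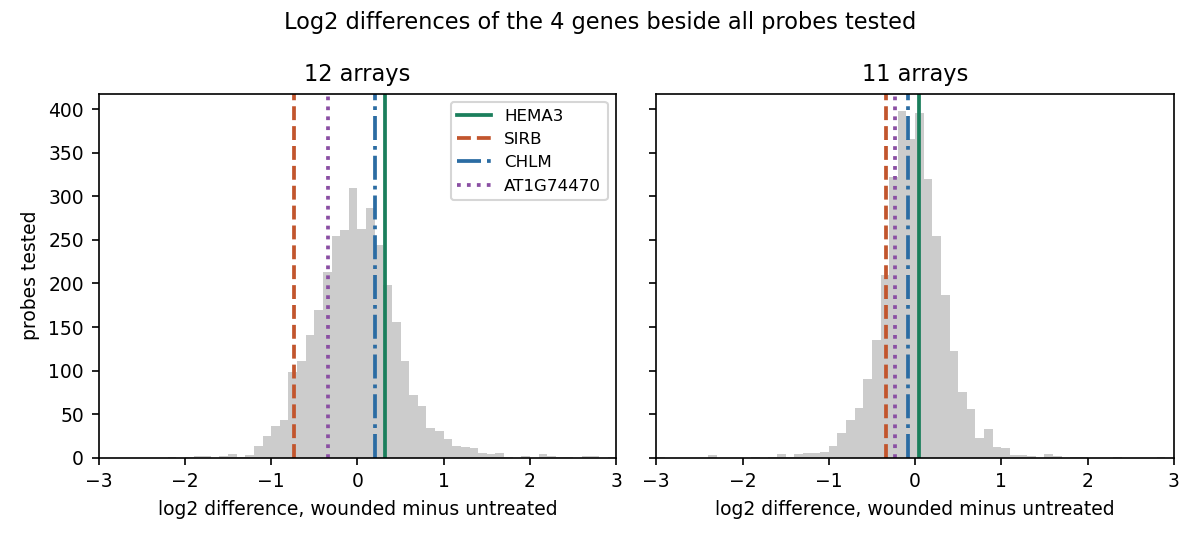
Number of probes tested (y axis) by log2 difference (wounded minus untreated, x axis, values beyond the axis counted in its end bars) over 12 arrays with 3233 probes and over 11 arrays with 3203, with the 4 genes as vertical lines. SIRB lies farthest from 0 of the 4 in both panels, at -0.74 and -0.34.

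The log2 ratio of HEMA3 to SIRB within an array is unchanged when all values of that array are multiplied by the same factor. Quantile normalization can change it. With the deposited values it was between -0.48 and -0.23 in the 6 untreated arrays, with a mean of -0.38 ± 0.10 (SD, n = 6). In wounded plants it was between -0.23 and 3.43, with a mean of 0.59 ± 1.41 (SD, n = 6), and 5 of the 6 arrays lay above all untreated ones. Over 11 arrays the highest was 0.32 and the mean 0.02 ± 0.21 (SD, n = 5), with 4 of 5 arrays above the untreated range. The ratio does not tell which gene differed, and its difference between the groups was not tested. Of the 6 ratios among the 4 genes, it had the smallest spread within the untreated group, and it is given as a description, picked after the values were seen. For HEMA3 to CHLM the mean ratio moved by 0.12 over 12 arrays and 0.16 over 11, with SDs of 0.28 in untreated and 0.50 and 0.55 in wounded arrays. For HEMA3 to AT1G74470 it moved by 0.42 over 12 arrays and 0.0027 over 11, with the deposited values. SIRB to AT1G74470 moved by -0.55 over 12 arrays and -0.39 over 11, beside 0.96 and 0.39 for HEMA3 to SIRB. SIRB to CHLM moved by -0.84 and -0.24, and CHLM to AT1G74470 by 0.29 and -0.16. These movements were not tested either. After quantile normalization, the log2 differences over 11 arrays were 0.04 for HEMA3 and -0.23 for AT1G74470.

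Across the 11 arrays, the log2 levels of HEMA3 and CHLM had a Pearson correlation of 0.82, the highest of the 6 pairs among the 4 genes, and 0.85 over 12. SIRB and CHLM had the lowest but one, at 0.27, and HEMA3 and AT1G74470 the lowest, at 0.12. With wounded replicate 4 included, HEMA3 and SIRB went from 0.42 to -0.83. These correlations are descriptions over arrays that include the 5 alike pairs. On the quantile-normalized scale, HEMA3, CHLM and SIRB all had their highest untreated levels in untreated 5 and 6.

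A search over 599 other genes with a single-gene probe and a value on all 12 arrays gave the patterns most like each gene, by Pearson correlation over the 11 arrays. These correlations were picked as the highest of the search, over arrays that include the alike pairs. They are descriptions and were not tested. For HEMA3 they were AT3G54210 (0.92, and 0.99 over 12 arrays), GH9B12 (0.89 and 0.94) and AT2G41950 (0.86 and 0.70). For CHLM they were AT3G16310 (0.94 and 0.93), AT1G62250 (0.90 and 0.91) and ATSPS4F, a sucrose-phosphate synthase (0.87 and 0.89). The patterns of these 6 genes stayed alike when wounded replicate 4 was included.

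For SIRB the most alike genes were AT1G79080 (0.93), the pentatricopeptide repeat gene AT5G15280 (0.91) and AT3G56330 (0.88). Over 12 arrays these became -0.26, 0.79 and -0.55, so for AT1G79080 and AT3G56330 the likeness did not extend to wounded replicate 4. For AT1G74470 they were AT4G27390 (0.88), AT2G25870 (0.82) and AT3G61870 (0.80), and over 12 arrays -0.40, 0.86 and 0.85. None of the 12 genes passed the threshold in limma over 12 or 11 arrays, and the lowest adjusted p was 0.0726, for AT5G15280 over 11 arrays, with a log2 difference of -0.77 ± 0.21 (SE).

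**Figure D4:**
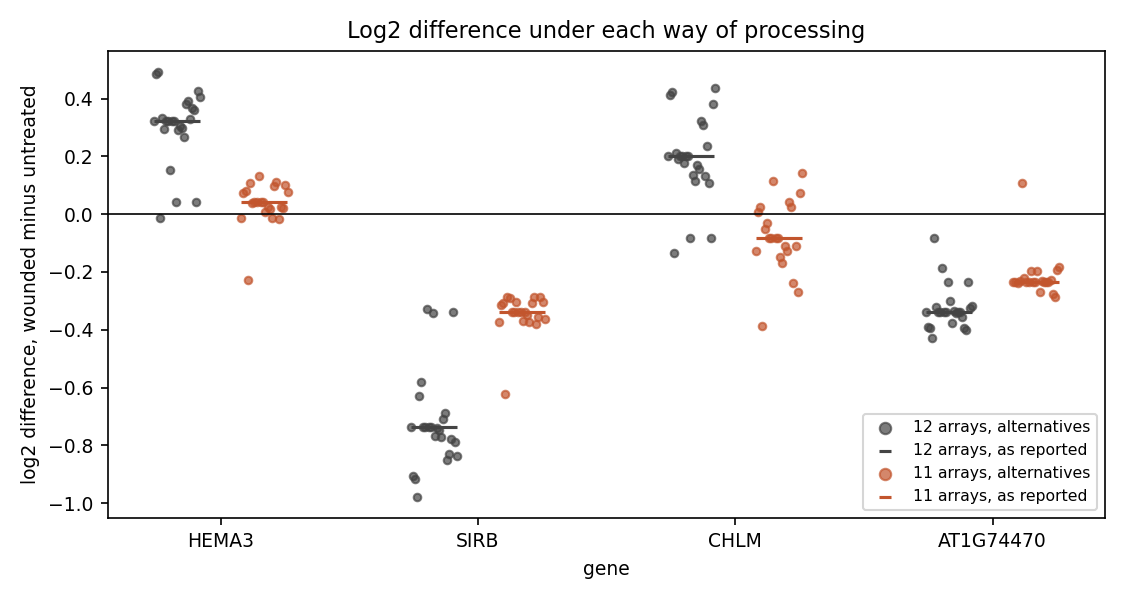
Log2 difference (wounded minus untreated, y axis) of each gene under each alternative way of processing, as points, with the reported value as a bar, over 12 arrays and over 11. The 24 values of SIRB over 12 arrays lie between -0.98 and -0.33, all below 0, and those of CHLM between -0.14 and 0.44, on both sides of it.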

How the data were processed

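The authors deposited intensity values for 3439 probes on 12 arrays, linear and never negative. The sources used here do not give the array type, background correction, scaling or signal over background. The number of arrays limits the precision. Names came from the platform annotation, which can be old, updated to the RefSeq gene table of TAIR10.1, where 690 of 692 single-gene probes matched. No build is named for the values, so no coordinates are printed.

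Exact zeros (4.77% to 5.90% per array) were taken as missing values. All remaining intensities were log2-transformed and quantile-normalized across the 12 arrays. Probes with at least 4 values in each group were tested in limma 3.58.1 (lmFit, eBayes; R 4.3.3), two-sided, with Benjamini-Hochberg adjustment over all probes and a threshold of 0.05. The fit over 11 arrays omits wounded replicate 4 but keeps the scaling. Exact permutation tests used scipy 1.17.1. Fits were also run on simulated data with known changes. The simulation drew each array independently, without alike pairs, so it does not cover the effect of those pairs. The genes named are the 4 enzymes, listed genes with a single-gene probe and, for each enzyme, the 3 genes most alike by correlation.

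Members, lists and alternatives were chosen with earlier results of these data known; ratios between the genes and the repeat of all alternatives over 11 arrays were added after seeing the data. The alternatives were a block for the replicate number, a random block for or averaging of alike arrays, other scaling, filters, an offset of 0.1, array weights, an intensity trend and leaving out each array.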

Additional observations from a re-analysis of the deposited data

Results flagged for a closer look

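In the wounded group, 1 array lay far from the other 5 for 2 of the 4 genes. For HEMA3, wounded replicate 4 was the highest, with a gap to the next array of 0.752 of the group's range. For SIRB it was the lowest, with a gap of 0.853 of the range. Chance flags about 1 in 20 groups, and this array stood apart over the whole table. No single array was so placed for CHLM or AT1G74470, nor in the untreated group for any of the 4 genes.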

How the results depend on the processing

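Over 12 arrays, SIRB and AT1G74470 kept a negative difference under all 24 alternatives, between -0.98 and -0.33 and between -0.43 and -0.08, and none of the 4 genes passed the threshold under any of them. The count of probes called rose from 0 to 7 with the values as deposited, 1 with an offset of 0.1, 179 with array weights, 73 with quantile normalization over the other 11 arrays, and ranged from 0 to 71 when each array was left out in turn, the 71 without wounded replicate 4. With the values as deposited, HEMA3 turned to -0.014 and CHLM to -0.14, where the median of all probes was -0.32. CHLM turned to -0.081 with quantile normalization over the other 11 arrays, and ranged from -0.081 to 0.44 when each array was left out. With array weights SIRB was -0.33, HEMA3 0.15 and AT1G74470 -0.19.

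Over 11 arrays, an added set, SIRB stayed negative under all 22 alternatives, between -0.62 and -0.29, and no gene passed. The 71 probes called became 0 with the replicate block, with a random block for alike arrays or with these averaged, 137 with the offset and 119 with array weights, and ranged from 2 (without untreated 4) to 125 (without wounded 1) when a further array was left out. HEMA3 turned to -0.014 with the replicate block and -0.23 with the values as deposited, and ranged from -0.018 to 0.11 when each array was left out. CHLM turned to 0.0067 with a random block for alike arrays, 0.025 with these averaged and 0.11 with array weights, and ranged from -0.27 to 0.14 when each array was left out. AT1G74470 turned to 0.11 with median centring. The causes were not tested.

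Whether the replicate numbers shared by the groups pair the arrays was not settled. Deviations from the group means correlated between -0.36 and 0.15 for same-numbered arrays, and 1 of 6 was over 0.1. The wounded mean included wounded replicate 4, which enters every wounded deviation, so this check cannot decide the pairing. With the replicate block, limma called 0 probes over 12 arrays, with 256 at an unadjusted p under 0.05, and the SIRB difference was -0.74 (adjusted p = 0.619).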
